A study of Mus musculus with 6 samples.

Results

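The genes described here are 7 matrix proteases and 3 tissue inhibitors of metalloproteinases (TIMPs), followed in macrophages stimulated with LPS after metformin pretreatment. The 10 members were taken by symbol from a table of 54532 genes. They are Mmp13, Mmp12, Mmp19, Mmp9, Mmp14, Mmp25 and Adamts4 on the protease side, and Timp1, Timp2 and Timp3 on the inhibitor side. The cells were bone marrow-derived macrophages (BMDMs) of C57BL/6 mice, grown in medium conditioned by L929 cells, and poly-A RNA was sequenced. Of the 3 groups of 2 libraries, the first was left untreated, the second received LPS (100 ng/ml) for 2 h, and the third received metformin (5 mM) for 6 h and then LPS (100 ng/ml) for 2 h (Met + LPS). LPS is the glycolipid on the surface of Gram-negative bacteria, sensed by macrophages through TLR4, and metformin is a drug given for type 2 diabetes. No group received metformin alone, so the comparison of Met + LPS with LPS holds the effect of the drug together with the LPS response. The cells of each group were plated as duplicate cultures, per the study's methods, and whether these came from separate mice is not given in the sources used here, so the p-values measure the spread between these libraries, which may be technical. Age and sex of the mice were not given in the labels.

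Matrix metalloproteinases (MMPs) are zinc-dependent enzymes made as inactive precursors that cut collagens, elastin, proteoglycans and many proteins of the cell surface. Most are secreted, whereas the membrane-type enzymes stay at the cell surface, and ADAMTS proteases are secreted relatives that cut proteoglycans. TIMPs bind the active site of these enzymes and block it. Macrophages use such proteases to pass through tissue and to remodel it, and inflammatory stimuli are known to induce several of the genes.

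The values were TPM, a transcript unit with the same total in every library, which divides the reads of a gene by its length, so that levels can be set side by side between genes. Between 25457016 and 30762755 reads per library were recovered from these values. All 8 macrophage markers reached 1 TPM in every library, and their sum was 44621 to 46599 TPM in the untreated, 37412 to 37903 TPM in the LPS and 30877 to 30948 TPM in the Met + LPS libraries. Lyz2 made up most of this sum, with means of 34912, 26835 and 21292 TPM in the same order of groups. After LPS, Cd14 and Adgre1 were higher, Cd68, Csf1r, Itgam and Mertk were lower, and Fcgr1 stayed at a mean of 165 TPM. In Met + LPS the mean of Fcgr1 was 74.4 TPM. The summed level of 10 neutrophil markers was 30.2 to 32.9 TPM in the untreated, 26.7 to 28.2 TPM in the LPS and 43.8 to 45.9 TPM in the Met + LPS libraries, and that of 8 fibroblast markers was at most 3.26 TPM in any library. Differences were tested with limma on log2(TPM + 1) over the 12755 genes that reached 1 TPM in 2 libraries or more, and p-values were adjusted by the Benjamini-Hochberg method. A gene was called LPS-responsive at an absolute difference of at least 2 between LPS and untreated BMDMs, and metformin-sensitive at an absolute difference of at least 0.7 between Met + LPS and LPS, each with an adjusted p under 0.01. By this rule the macrophage marker Fcgr1 was metformin-sensitive and lower (-1.14, adjusted p = 5.1e-05 in limma). Mertk, Cd14, Adgre1, Lyz2 and Itgam differed by -0.61, -0.40, -0.34, -0.33 and -0.31, at an adjusted p under 0.01 but below the size cut-off. Cd68 and Csf1r did not pass that p (adjusted p = 0.97 and 0.20 in limma). The median tested gene was lower by 0.48 on this scale after LPS than in untreated BMDMs, whereas its difference between Met + LPS and LPS was -0.03. With 2 libraries against 2, a two-sided exact permutation test cannot go below p = 0.333, and the limma p-values depend on a spread shared over genes. Within BMDM cultures, fewer cells that express a gene and less RNA per cell cannot be told apart.

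**Figure D1:**
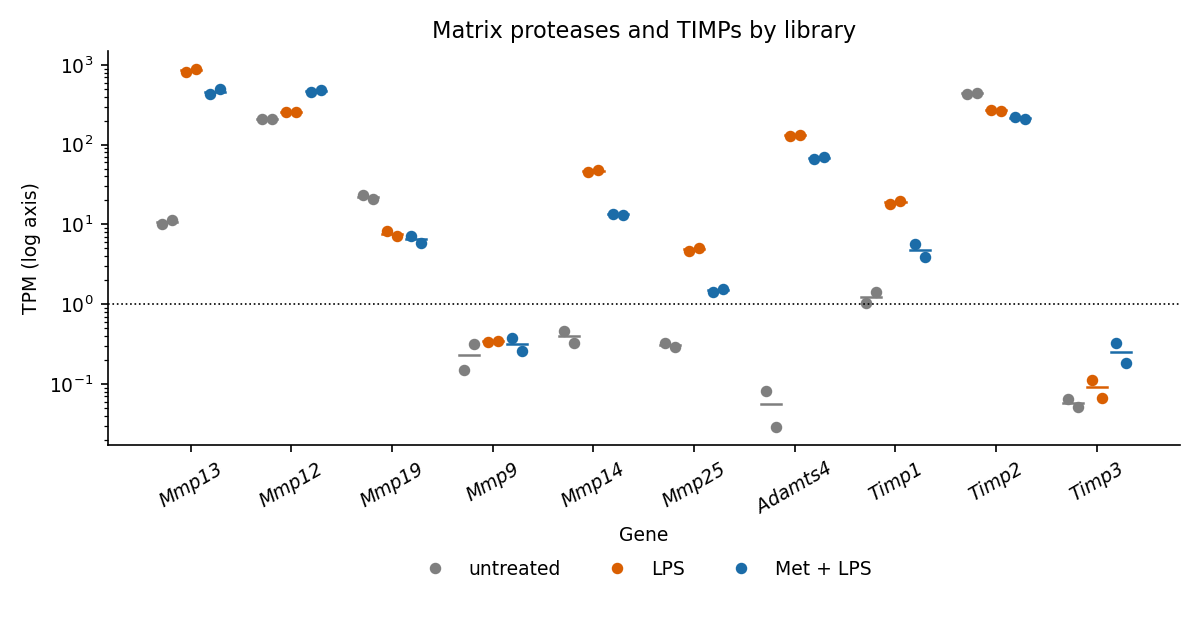
TPM of the 10 genes (log axis) in untreated (grey), LPS (orange) and Met + LPS (blue) BMDMs. Each point is a library, each short bar a group mean, and the dotted line marks 1 TPM. Mmp13, Mmp14, Mmp25, Adamts4 and Timp1 were highest in both LPS libraries, Mmp12 was highest in both Met + LPS libraries, and Mmp9 and Timp3 stayed under 1 TPM in all 6.

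Of the 10 genes, 5 were LPS-responsive and higher after LPS (Adamts4, Mmp13, Mmp14, Timp1 and Mmp25), and none was LPS-responsive and lower. Of all tested genes, 3.72% were called higher and 2.37% lower. Mmp9 and Timp3 did not reach the minimum of 1 TPM in any library and were not tested. Adamts4, Mmp14 and Mmp25 were under 1 TPM in both untreated libraries and passed the minimum through the stimulated libraries, which means that they had to differ, and no support is drawn from the number of genes that passed. At an adjusted p under 0.01 without a cut-off on size, all 8 tested genes differed between LPS and untreated BMDMs, 6 higher and 2 lower, where 76.3% of all tested genes did. After metformin pretreatment those 5 genes were lower than after LPS alone, past the cut-offs, and Mmp12 was higher, while 4.09% of all tested genes were called lower and 4.19% higher. The comparisons share the LPS libraries. Timp2 was also lower at an adjusted p under 0.01, below the size cut-off, which made 7 of the 8 tested genes, against 32.6% of all tested genes. The median difference over the 8 tested genes was 2.67 after LPS and -0.92 between Met + LPS and LPS, against -0.48 and -0.03 over all tested genes. With Adamts4, Mmp14 and Mmp25 among the 8, these medians are partly set by the minimum, and no support is drawn from them.

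**Figure D2:**
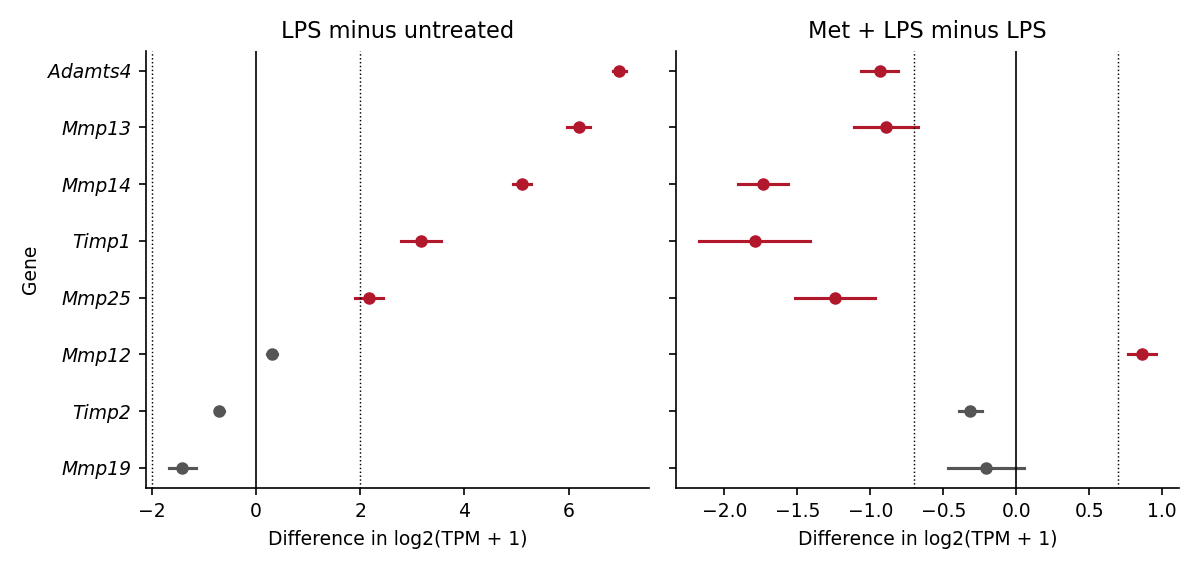
Differences in log2(TPM + 1) of the 8 tested genes, LPS minus untreated (left) and Met + LPS minus LPS (right), with 95% confidence intervals from limma (n = 2 libraries per group). Red marks genes past the cut-offs and dotted lines the cut-offs on size. The 5 genes highest on the left panel lie below 0 on the right panel, where Mmp12 lies above 0.

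Mmp13 (ENSMUSG00000050578, chr9:7272514-7283331, plus strand, GRCm38) encodes the main collagenase of rodents, which cuts fibrillar collagens. It stood at 10.1 and 11.5 TPM in the untreated libraries, 819 and 900 TPM in the LPS libraries and 427 and 498 TPM in the Met + LPS libraries. The 3 groups did not overlap, and Mmp13 was the most abundant of the 10 transcripts after LPS. LPS raised it from 10.8 ± 0.992 to 860 ± 57.5 TPM (SD, n = 2 each), a difference of 6.19 ± 0.09 (SE) in log2(TPM + 1) with an adjusted p of 1.8e-08 in limma. In Met + LPS it was 463 ± 49.8 TPM (SD, n = 2), or 53.8% of the LPS level, and the difference from LPS was -0.90 ± 0.09 (SE, adjusted p = 4.1e-04 in limma). The 95% interval of that difference, -1.12 to -0.68, contains the size cut-off. The level in Met + LPS was still 42.9 times the untreated one.

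Mmp12 (ENSMUSG00000049723, chr9:7344381-7369499, plus strand) encodes macrophage elastase, which cuts elastin and is made mainly by macrophages. Its libraries read 209 and 209 TPM untreated, 257 and 259 TPM after LPS, and 455 and 488 TPM in Met + LPS. Both Met + LPS libraries lay above both LPS libraries, which lay above both untreated ones, and no other tested member had this order. The difference between LPS and untreated BMDMs was 0.30 ± 0.04 (SE, adjusted p = 3.7e-04 in limma), below the size cut-off, and it became 0.83 once the libraries were rescaled by the median ratio over genes. Between Met + LPS and LPS the mean rose from 258 ± 1.17 to 471 ± 23.8 TPM (SD, n = 2 each), a ratio of 1.83 and a difference of 0.86 ± 0.04 (SE, adjusted p = 2.1e-05 in limma). Relative to untreated BMDMs the Met + LPS level was 2.25 times as high, a difference of 1.17 ± 0.04 (SE, adjusted p = 8.2e-07 in limma). The neutrophil markers, of which 5 of 10 reached 1 TPM in every library, were also highest as a sum in Met + LPS. The largest there were Elane, S100a9 and S100a8, with means of 15.6, 14.3 and 8.53 TPM. Ly6g and Retnlg held at most 1 read in any library, and Cxcr2 had no reads after LPS or in Met + LPS. Each of the 5 tested neutrophil markers was higher in Met + LPS than in LPS, by 0.43 (Ngp) to 0.83 (Elane) in log2(TPM + 1). Their adjusted p in limma ran from 0.019 (Elane) to 0.16 (S100a8), so none was under 0.01. The part of these markers in the level of Mmp12 was not tested. At its 3′ end Mmp12 shares 2.17% of its exon bases with Mmp1b on the opposite strand, which had at most 1 read in any library.

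Mmp13 and Mmp12 thus differed in opposite directions between Met + LPS and LPS. The ratio of Mmp13 to Mmp12 in TPM was 0.0483 and 0.0548 in the untreated, 3.18 and 3.48 in the LPS and 0.940 and 1.02 in the Met + LPS libraries. Both lie side by side at an end of a cluster of 10 MMP genes that spans 427 kb of chromosome 9, in which the GENCODE annotation lists no protein-coding gene of another family. The end of Mmp13 and the start of Mmp12 are 61.1 kb apart. Of the 8 other genes in the cluster, 3 were tested. Mmp10, a stromelysin, was at 0.153 and 0.324 TPM untreated, 3.51 and 2.39 TPM after LPS and 1.69 and 1.51 TPM in Met + LPS. It rose after LPS by 1.66 ± 0.18 in log2(TPM + 1) (SE, adjusted p = 1.2e-04 in limma), below the size cut-off on that scale. In mean TPM it was 12.4 times as high after LPS as untreated. Mmp10 was under 1 TPM untreated and entered the test through the stimulated libraries. Its difference between Met + LPS and LPS was -0.59 (adjusted p = 0.031). Mmp27 fell by 0.68 after LPS (adjusted p = 0.0034 in limma), and Mmp8, the neutrophil collagenase, was between 1.30 and 1.74 TPM in all 6 libraries, with overlapping groups for LPS and untreated. Mmp1a, Mmp20 and Mmp7 were listed at 0 in every library, and Mmp1b and Mmp3 stayed under 1 TPM.

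**Figure D3:**
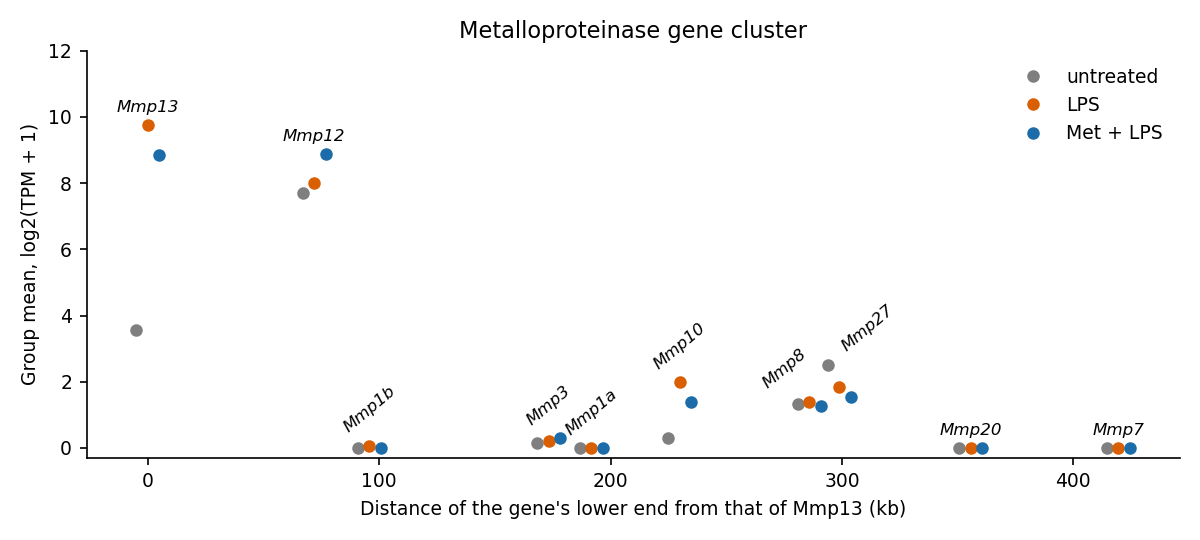
Group means in log2(TPM + 1) of the 10 MMP genes of the cluster on chromosome 9, against the distance in kb of each gene's lower end from that of Mmp13 (n = 2 libraries per group; the groups are drawn slightly apart). Mmp13 and Mmp12, the 2 genes at the left, hold nearly all of the signal, and the means of Mmp13 and Mmp12 in Met + LPS, 463 and 471 TPM, lie close together.

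The bases before the transcription start are shown for the members whose RefSeq window (250 bases before to 50 after the start, GRCm38.p6) held a motif searched for. Windows were listed for 7 of the 10 members, as 8 windows. The motifs were TGANTCA, bound by AP-1 factors, the NF-kappaB consensus, and TGATGNAAT, a C/EBP-ATF response element, each searched on both strands, and they were found in 7.81%, 4.51% and 0.965% of all 32851 windows. AP-1 and NF-kappaB are factors that LPS signalling is known to activate. Capitals mark the match, and each sequence runs 5′ to 3′ on the strand of the gene and ends at the base before the start. The AP-1 motif stood 35 to 29 bases before the start of Mmp13, at chr9:7272264-7272513 (plus strand), and 44 to 38 bases before the second of the listed starts of Mmp12, at chr9:7347124-7347373 (plus strand). The NF-kappaB consensus stood 88 to 79 bases before the start of Mmp25, at chr17:23645270-23645519 (minus strand), where it reads on the strand opposite to the gene.
Mmp13: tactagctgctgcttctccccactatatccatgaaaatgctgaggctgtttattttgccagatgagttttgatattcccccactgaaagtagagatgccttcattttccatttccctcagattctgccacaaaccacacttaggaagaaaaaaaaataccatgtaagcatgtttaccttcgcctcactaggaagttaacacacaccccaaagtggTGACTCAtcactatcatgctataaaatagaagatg
Mmp12: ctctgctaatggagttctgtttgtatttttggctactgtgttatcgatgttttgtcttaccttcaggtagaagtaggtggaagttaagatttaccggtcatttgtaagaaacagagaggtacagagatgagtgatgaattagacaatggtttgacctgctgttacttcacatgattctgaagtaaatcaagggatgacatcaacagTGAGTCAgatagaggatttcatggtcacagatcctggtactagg
Mmp25: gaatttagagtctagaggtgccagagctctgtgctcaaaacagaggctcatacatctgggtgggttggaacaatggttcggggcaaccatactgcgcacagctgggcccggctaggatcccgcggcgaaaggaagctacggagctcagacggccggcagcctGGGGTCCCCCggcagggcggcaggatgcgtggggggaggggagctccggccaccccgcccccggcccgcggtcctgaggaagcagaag
None of the 3 motifs was found in the windows of Mmp14, Timp1, Timp2 and Timp3 or in the first window of Mmp12. A match is a match of letters only. The AP-1 motif lay near the start of Mmp13 and near only the second listed start of Mmp12. Which start these cells use, and any part of the motif in the levels, were not tested.

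Mmp14 (ENSMUSG00000000957, chr14:54431612-54445364, plus strand) encodes a transmembrane MMP that cuts collagen at the cell surface and, together with TIMP2, activates the precursor of MMP2. Its level was 0.463 and 0.328 TPM in the untreated, 45.9 and 47.7 TPM in the LPS and 13.5 and 13.2 TPM in the Met + LPS libraries. The untreated values rest on 21 and 14 reads. After LPS it was higher by 5.10 ± 0.07 (SE, adjusted p = 1.5e-08 in limma), and the ratio of reads per depth was 118 with a 95% counting interval of 84.4 to 169. In Met + LPS it stood at 28.5% of the LPS level, 13.4 ± 0.170 against 46.8 ± 1.25 TPM (SD, n = 2 each), a difference of -1.73 ± 0.07 (SE, adjusted p = 1.6e-05 in limma). Its substrate gene Mmp2 stayed under 1 TPM in all 6 libraries.

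Mmp25 (ENSMUSG00000023903, chr17:23628311-23645277, minus strand) encodes a membrane-type MMP held by a lipid anchor and known from leukocytes. It had the lowest levels of the tested members in both stimulated groups, with 0.322 and 0.290 TPM untreated, 4.68 and 5.09 TPM after LPS, and 1.42 and 1.56 TPM in Met + LPS. The groups did not overlap, although the untreated libraries held only 13 and 11 reads. The difference after LPS was 2.17 ± 0.11 (SE, adjusted p = 4.7e-06 in limma), whose 95% interval of 1.90 to 2.45 contains the size cut-off. It became 3.96 with limma voom on recovered reads. Met + LPS was at 30.5% of LPS, a difference of -1.24 ± 0.11 (SE, adjusted p = 2.6e-04 in limma).

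Adamts4 (ENSMUSG00000006403, chr1:171250421-171260637, plus strand) encodes an aggrecanase that cuts the proteoglycans aggrecan and versican. It was nearly absent from untreated BMDMs, at 0.0820 and 0.0290 TPM or 3 and 1 reads, and reached 130 and 133 TPM after LPS. The Met + LPS libraries held 66.9 and 69.9 TPM, between the other groups. The difference after LPS was 6.98 ± 0.05 (SE, adjusted p = 1.5e-09 in limma). The ratio of reads per depth, LPS over untreated, was 2341 with a 95% counting interval of 914 to 8593, and voom gave 11.0 on the log2 scale. Met + LPS was at 51.9% of LPS, 68.4 ± 2.10 against 132 ± 2.20 TPM (SD, n = 2 each), a difference of -0.94 ± 0.05 (SE, adjusted p = 4.2e-05 in limma).

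The secreted protease Mmp19 (ENSMUSG00000025355, chr10:128790910-128800824, plus strand), which cuts components of basement membranes, was highest in untreated BMDMs. Its values were 23.1 and 21.1 TPM untreated, 8.18 and 7.14 TPM after LPS and 7.19 and 5.85 TPM in Met + LPS. It fell by 1.42 ± 0.11 (SE, adjusted p = 2.5e-05 in limma) after LPS, below the size cut-off, and fell by 0.93 after rescaling. The LPS and Met + LPS libraries overlapped, and their difference was -0.21 with a 95% interval of -0.47 to 0.05 (adjusted p = 0.16 in limma). Of its exon bases, 28.3% are shared with Tmem198b and Gm47093 on the opposite strand, and whether reads were counted by strand is not given in the sources used here. Tmem198b itself was at 11.5 and 13.2 TPM untreated, 5.20 and 4.85 TPM after LPS and 3.23 and 2.69 TPM in Met + LPS, and fell by 1.14 after LPS (adjusted p = 5.7e-05 in limma). Its part in the values of Mmp19 was not tested. Mmp9 (ENSMUSG00000017737, chr2:164940780-164955850, plus strand), a gelatinase abundant in neutrophils, was between 0.149 and 0.374 TPM with 4 to 10 reads per library. With both libraries of a group summed, its ratio of LPS to untreated was 1.49 with a 95% counting interval of 0.677 to 3.38, so that no difference was detectable at this depth.

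Timp1 (ENSMUSG00000001131, chrX:20870166-20874735, plus strand), a secreted inhibitor of most soluble MMPs that inhibits the membrane-type MMP14 poorly, was LPS-responsive, as were 4 of the 7 proteases. It was at 1.04 and 1.41 TPM untreated, 18.0 and 19.8 TPM after LPS and 5.66 and 3.94 TPM in Met + LPS. Its transcript is short, so that these values rest on 7 and 9, 122 and 128, and 38 and 31 reads. The difference after LPS was 3.16 ± 0.16 (SE, adjusted p = 3.9e-06 in limma). Between Met + LPS and LPS it was -1.79 ± 0.16 (SE, adjusted p = 2.3e-04 in limma), which left 25.4% of the LPS level, the lowest share among the 5 LPS-responsive members as a point value. The intervals of Timp1, -2.17 to -1.41, and Mmp14, -1.91 to -1.56, overlap, and the difference between members was not tested.

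Timp2 (ENSMUSG00000017466, chr11:118301069-118355740, minus strand), which inhibits MMPs and also bridges MMP14 to the MMP2 precursor, was the most abundant of the 10 transcripts in untreated BMDMs. Its levels were 439 and 443 TPM untreated, 274 and 267 TPM after LPS and 221 and 213 TPM in Met + LPS. The groups did not overlap and descended in this order. It fell by 0.70 ± 0.03 (SE, adjusted p = 3.0e-06 in limma) after LPS, and by 0.18 after rescaling, against the median tested gene at -0.48 before rescaling. From LPS to Met + LPS it fell by 0.31 ± 0.03 (SE, adjusted p = 4.6e-04 in limma), below the size cut-off. Timp3 (ENSMUSG00000020044, chr10:86300372-86349506, plus strand), which binds to the matrix and also inhibits ADAM17 and ADAMTS4, held 4 and 3 reads untreated, 7 and 4 after LPS and 20 and 13 in Met + LPS. Its libraries did not overlap between Met + LPS and LPS, and the ratio was 2.73 with a 95% counting interval of 1.34 to 5.98. Without a minimum on the level, limma gave an adjusted p of 0.127 for this difference of 0.20. The gene lies within Syn3, which runs on the opposite strand and shares 21.3% of its exon bases, and Syn3 was at most 0.0341 TPM.

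Summed over the 7 proteases, the level was 243 and 243 TPM in the untreated, 1266 and 1353 TPM in the LPS and 971 and 1077 TPM in the Met + LPS libraries. Summed over the 3 TIMPs it was 440 and 444, 292 and 287, and 227 and 217 TPM. The TIMP sum was above the protease sum in untreated BMDMs and below it in both stimulated groups. The ratio of proteases to TIMPs was 0.550 ± 0.004 untreated, 4.53 ± 0.270 after LPS and 4.62 ± 0.477 in Met + LPS (SD, n = 2 each), and the last 2 groups overlapped. Both sums were lower in the Met + LPS than in the LPS libraries without overlap, and the make-up of the protease sum also differed. Mmp12 held 86.1% of it untreated, 19.7% after LPS and 46.1% in Met + LPS, as group means, whereas Mmp13 held 4.44%, 65.6% and 45.1%. Adamts4 held 10.1% of the sum after LPS and 6.69% in Met + LPS. These sums are of transcripts, and protein, secretion and activity were not measured in these libraries.

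**Figure D4:**
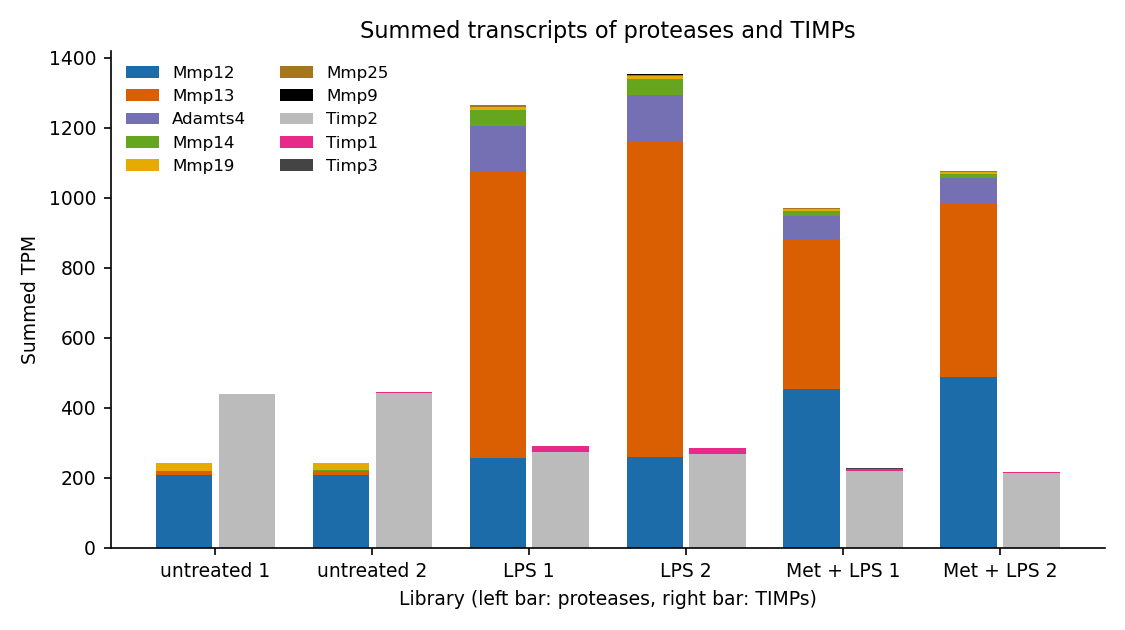
TPM summed over the 7 proteases (left bar) and the 3 TIMPs (right bar) in each of the 6 libraries, coloured by gene. The protease sum rose from 243 TPM in both untreated libraries to 1266 and 1353 TPM after LPS, mostly as Mmp13, and Mmp12 held a larger part of it in Met + LPS.

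In order of level, untreated BMDMs held Timp2, Mmp12, Mmp19 and Mmp13 above 10 TPM, and neighbours in this order did not overlap. After LPS the order was Mmp13, Timp2, Mmp12, Adamts4, Mmp14 and Timp1, again without overlap between neighbours. In Met + LPS the libraries of Mmp12 and Mmp13 overlapped at the top of the order, followed by Timp2, Adamts4 and Mmp14. Met + LPS was also compared with untreated BMDMs, at the same cut-offs as LPS. Adamts4, Mmp13 and Mmp14 were past the cut-offs, with differences of 6.04, 5.30 and 3.36, and no member was lower, while 3.18% of all tested genes were called higher and 2.16% lower. Timp1 (1.37 ± 0.16, adjusted p = 1.9e-04) and Mmp25 (0.93 ± 0.11, adjusted p = 2.5e-04) remained above untreated in limma, below the size cut-off (SE). As a share of the LPS difference on the log2(TPM + 1) scale, 86.6% was left for Adamts4, 85.5% for Mmp13, about 66% for Mmp14, 43.3% for Timp1 and 42.8% for Mmp25. In TPM the shares left were 51.9%, 53.2%, 27.9%, 20.2% and 25.8% for the same genes, so that their size and order depend on the scale.

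The other genes of the system were taken as whole lists. Of 17 other MMPs, 5 were tested, none was past the cut-offs after LPS or in Met + LPS, and the highest value was 5.42 TPM. At such low levels the size cut-off on log2(TPM + 1) is harder to reach. In mean TPM, LPS was 12.4 times untreated for Mmp10 and 0.230 times untreated for Mmp11. At an adjusted p under 0.01, 1 was higher (Mmp10) and 2 were lower (Mmp27 and Mmp11) after LPS, of which Mmp11 entered the test through the untreated libraries alone, and none passed between Met + LPS and LPS, with a median difference of -0.14. At that p, 76.3% of all tested genes differed after LPS and 32.6% between Met + LPS and LPS. Of 18 other ADAMTS proteases, 2 were tested. Adamts1, like Adamts4 a protease of proteoglycans, was at 3.18 and 3.32 TPM untreated, 2.73 and 2.51 TPM after LPS and 6.39 and 6.07 TPM in Met + LPS. Its mean TPM in Met + LPS was 2.38 times that in LPS (adjusted p = 2.0e-04 in limma), past the cut-offs, where Adamts4 was lower. Adamts10, which is linked to fibrillin, was 22.2 and 25.5 TPM untreated, 6.24 and 6.13 TPM after LPS and 9.49 and 9.95 TPM in Met + LPS. It fell by 1.79 after LPS (adjusted p = 2.1e-06) and was higher by 0.58 in Met + LPS than in LPS (adjusted p = 0.0013 in limma).

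ADAM proteases shed proteins from the cell surface, and 7 of the 9 listed were tested. After LPS, 1 was lower past the cut-offs, and at an adjusted p under 0.01 there was 1 higher and 5 lower, with a median difference of -0.54 against -0.48 over all tested genes. The shares of all tested genes were 2.37% lower past the cut-offs and 76.3% at that p in either direction. The gene that was higher was Adam17, the sheddase of TNF and a target of TIMP3, at 152 and 156 TPM untreated and 264 and 258 TPM after LPS, a difference of 0.75 ± 0.04 (SE, adjusted p = 3.6e-06 in limma). Adam19 was past the cut-offs after LPS, from 6.10 and 5.51 to 0.425 and 0.520 TPM, and fell by 2.21 (adjusted p = 6.5e-06 in limma). After rescaling by the median ratio it fell by 1.85, short of the size cut-off, and both LPS libraries were under 1 TPM. Adam8, the most abundant of the list, fell from 977 and 1032 to 694 and 686 TPM. Adam10 and Adam15 fell by 0.46 and 0.56, and Adam9 was between 187 and 207 TPM in all 6 libraries. Between Met + LPS and LPS no ADAM gene was past the cut-offs, and at an adjusted p under 0.01 only Adam8 differed, by -0.21 (adjusted p = 0.0031 in limma), with a median of 0.11 over the list. Over all tested genes, 32.6% differed at that p.

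Among 11 other inhibitors, activators and binding partners, 8 were tested. After LPS 2 were past the cut-offs, both higher, and at an adjusted p under 0.01 there were 3 higher and 5 lower, with a median difference of -0.35. The shares of all tested genes were 3.72% higher past the cut-offs and 76.3% at that p in either direction. Among the 5 that were lower, Reck, a membrane-anchored MMP inhibitor, entered the test through the untreated libraries alone. Between Met + LPS and LPS, 1 was past the cut-offs, and 1 was higher and 2 were lower at an adjusted p under 0.01, with a median of -0.05. Here 4.09% of all tested genes were lower past the cut-offs, and 32.6% differed at that p. Cd44, the hyaluronan receptor that can hold MMPs at the cell surface, went from 207 and 195 TPM to 1319 and 1253 TPM, a difference of 2.67 ± 0.04 (SE, adjusted p = 3.0e-08 in limma). It was 1231 and 1179 TPM in Met + LPS, a difference from LPS of -0.09 with an adjusted p of 0.13. Lcn2, the lipocalin that binds MMP9, rose from 0.251 and 0.0532 to 3.61 and 4.28 TPM, and it entered the test through the stimulated libraries alone. It was 1.97 and 2.02 TPM in Met + LPS, a difference from LPS of -0.72 ± 0.14 (SE, adjusted p = 0.0063 in limma). This call, the only one of the list between Met + LPS and LPS, was lost in 7 of 13 alternatives, among them the replicate block (adjusted p = 0.013) and leaving out any of the 4 libraries compared (adjusted p from 0.017 to 0.043). Furin, the convertase that activates membrane-type MMPs and ADAMTS proteases, was at 62.8 and 63.7 TPM untreated, 96.8 and 108 TPM after LPS and 165 and 146 TPM in Met + LPS. It rose after LPS by 0.68 (adjusted p = 1.3e-04) and was higher by 0.60 in Met + LPS than in LPS (adjusted p = 9.0e-04 in limma), in the opposite direction to Mmp14, Mmp25 and Adamts4. Lrp1, an endocytic receptor that clears proteases and TIMPs, fell by 0.77 after LPS (adjusted p = 6.1e-06 in limma). Cd63, a surface partner of TIMP1, Bsg, an inducer of MMPs, and Thbs1 fell by 0.41, 0.28 and 0.45 after LPS, each at an adjusted p under 0.01. Cd63, Bsg and Thbs1 fell by less than the median tested gene, which was at -0.48, so they were not lower relative to it, whereas Lrp1 fell by more. Of these, Bsg fell by a further 0.27 in Met + LPS (adjusted p = 0.0014 in limma).

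Of 15 matrix substrates, 5 were tested, and after LPS 4 were higher at an adjusted p under 0.01, 1 of them past the cut-offs, with a median difference of 0.61. The shares of all tested genes were 76.3% at that p in either direction and 3.72% higher past the cut-offs. Between Met + LPS and LPS none was past the cut-offs, 2 were higher and 1 was lower at an adjusted p under 0.01, and the median was -0.29. Here 32.6% of all tested genes differed at that p. The gene past the cut-offs was Vcan, the proteoglycan cut by ADAMTS4, at 0.273 and 0.270 TPM untreated, 10.5 and 11.0 TPM after LPS and 6.29 and 6.52 TPM in Met + LPS. It rose by 3.21 ± 0.08 (SE, adjusted p = 2.0e-07 in limma) after LPS and differed by -0.66 ± 0.08 (SE, adjusted p = 9.0e-04) between Met + LPS and LPS. Of the 4 substrates that were higher, Vcan, Col4a1 and Col4a2 were under 1 TPM in untreated BMDMs and entered the test through the stimulated libraries, so that the count and the median of the list are partly set by the minimum. Spp1, osteopontin, was the most abundant substrate and rose from 5635 and 5793 to 8213 and 7749 TPM after LPS and to 9576 and 9970 TPM in Met + LPS. The difference between Met + LPS and LPS was 0.29 ± 0.04 for Spp1 and 0.36 ± 0.04 for the laminin chain Lamc1 (SE, adjusted p = 0.0020 and 7.5e-04 in limma).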

How the data were processed

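The authors sequenced poly-A RNA, aligned single-end reads to GRCm38 with STAR (2.6.1d in the submitters' processing notes, which also list SAMtools 1.9) and counted reads per gene with featureCounts of Subread 1.6.3. They deposited TPM values for 54532 genes without pooling replicates, and how counts became TPM is not given in the sources used here. Exon lengths were taken from the GENCODE annotation of GRCm38, which matched 54495 genes by identifier. TPM times exon length gave whole reads (within 0.02 reads) for 96.1% to 96.3% of values above 0, and these gave depth and counting intervals (95%, exact conditional binomial, counting error only).

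Genes that reached 1 TPM in 2 libraries or more were tested in limma 3.58.1 (R 4.3.3, lmFit and eBayes with trend, all 6 libraries, 3 residual degrees of freedom, Benjamini-Hochberg adjustment). The fit was also run on simulated data, in which only genes well expressed in all 6 libraries were changed. That run does not cover members with few reads in a group. Cut-offs of 2 and 0.7 on the log2 scale took their values from the study, which set them on log2 fold changes. Here they were set on differences in log2(TPM + 1), which are smaller than log2 folds for genes at low levels. Mmp25, for example, was 16.0 times as high after LPS as untreated in mean TPM, but its difference was 2.17. The calls made here are therefore not equivalent to those of the study. Tables and plots were made with Python 3.11.15 (numpy 2.4.6, pandas 2.3.3, scipy 1.17.1, matplotlib 3.10.9). The members and lists were chosen with earlier results of these data known. All members are named, as are list genes past the cut-offs or at 10 TPM or more in a group, and, for members past the cut-offs in both comparisons, the 3 nearest profiles. Mmp10, Mmp27, Mmp8, Mmp2 and genes sharing exon bases with a member were named for their position or role after their values were seen. Alternatives were a pseudocount of 0.1, no minimum, 5 TPM, median-ratio rescaling, only the libraries compared, a replicate block, no trend, voom on recovered reads, and leaving out each library. List genes were followed through these only where they were past the cut-offs in the main fit.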

Additional observations from a re-analysis of the deposited data

How the results depend on the processing

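Across all settings, 332 fold changes of members kept their direction and their side of the cut-offs. The only exception was Mmp25 in Met + LPS against untreated, which passed with voom (2.26), making 4 members past the cut-offs in place of 3. A minimum of 5 TPM left Mmp25 untested. Changing the minimum, the libraries fitted, the replicate block or the trend alters the p-value of a member but not its fold change. The same holds for leaving out a library of the group not compared. The 332 therefore include many fold changes that could not differ in direction or size. Among list genes, the fall of Adam19 after LPS missed the size cut-off after rescaling (-1.85), Lcn2 missed it after LPS without untreated replicate 2 (1.98), and Lcn2 between Met + LPS and LPS missed an adjusted p of 0.01 with a pseudocount of 0.1 (-0.94, adjusted p = 0.10), without a minimum (0.024), with the replicate block (0.013) and without any of the 4 libraries compared (-0.82 to -0.62, adjusted p from 0.017 to 0.043). The cause was not tested. Replicate numbers were not shown to pair libraries, with correlations of deviations of -0.004, 0.028 and 0.006, and the replicate block left 5, 6 and 3 members past the cut-offs, as without it. Counts over all tested genes moved by over 1.5 times in some settings. Genes higher after LPS went from 474 to 718 with voom, and genes lower from 302 to 815 with a pseudocount of 0.1, 129 after rescaling and 878 with voom. Against untreated, genes higher in Met + LPS went from 406 to 628 with voom, and genes lower from 276 to 848, 98 and 936 in the same settings. With only the libraries compared, 2662 in place of 4156 genes had an adjusted p under 0.01 between Met + LPS and LPS. Rescaling moved the protease sums to 188, 1463 and 1155 TPM. Values of Adamts4, Mmp14, Mmp25 and Timp1 in untreated BMDMs rest on at most 21 reads a library, which limits their folds.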

Other observations

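For the 5 members past the cut-offs in both comparisons, the nearest profiles among the tested genes were found by Euclidean distance of log2(TPM + 1) values centred over the 6 libraries. They are a description of 6 libraries in 3 groups and say nothing of shared control. Nearest to Mmp13 was Icam1 (distance 0.27), an adhesion molecule that leukocytes bind, at 41.9, 2782 and 1694 TPM as means of untreated, LPS and Met + LPS BMDMs. Dusp2, a phosphatase of MAP kinases, and Gbp2, an interferon-induced GTPase, followed at 0.30 and 0.46. Nearest to Adamts4 were Cd40, a costimulatory receptor (0.24), the chemokine Cxcl9 (0.41) and Cd69 (0.44). Cd40 had means of 5.56, 703 and 400 TPM.

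Nearest to Mmp14 were Errfi1, a feedback inhibitor of EGF receptor signalling (0.41), the receptor Gpr84 (0.48) and the acute-phase gene Saa3 (0.49). Errfi1 had means of 8.28, 283 and 73.6 TPM. Nearest to Mmp25 were the transcription factor Ikzf1 (0.14), Serpina3g (0.17) and the sphingosine kinase Sphk1 (0.25). Nearest to Timp1 were Pfkfb3, a regulator of glycolysis (0.41), Sema4c (0.68) and Cnn3 (0.68). Pfkfb3 had means of 16.5, 135 and 35.6 TPM. No gene was among the 3 nearest of more than a single member.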
